A study of Rattus norvegicus with 8 samples.

Results

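The genes described here are the 4 myogenic regulatory factors Myod1, Myog, Myf5 and Myf6, the MEF2 factors Mef2a, Mef2c and Mef2d, the histone deacetylase Hdac4 and the satellite cell factor Pax7, as measured in castrated rats with and without testosterone propionate. All gene spots of the array whose name in the scanner files equals one of these symbols were taken, whatever their signal. This gave 9 genes, 10 probe sequences and 19 spots out of 26259 genes, 30367 probe sequences and 42877 gene spots. Of the 9 members, 8 had a probe bright enough to be tested, as had 10881 genes in all.

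RNA came from adult male Wistar rats of 120 ± 12 days, and every animal, control or treated, was castrated. The treated rats had been injected once under the skin, 8 h or 24 h earlier, with testosterone propionate, an injectable ester of testosterone, at 4 mg/kg in 1 mL/kg corn oil. Each of 8 Agilent 2-colour arrays carried treated RNA against control RNA, with 4 arrays per time that the labels call biological replicates, and with each dye on the treated RNA on 2 of the 4 arrays. The series title names muscle atrophy and the labels write of castrated rat cells (C3d); the sources used here do not give the muscle, the interval since castration, the treatment of the controls with oil, or the number of animals behind an array.

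Myod1 and Myf5 commit cells to the muscle lineage, myogenin (Myog) drives their differentiation, and Myf6 is the myogenic factor best known from mature fibres. These helix-loop-helix proteins bind DNA at E-boxes together with E proteins, and they act with MEF2 proteins, which bind an A/T-rich element in many muscle genes. Hdac4 binds MEF2 and represses its targets, and in mice Hdac4 and myogenin are known to rise in denervated muscle and to raise the ubiquitin ligases of atrophy. Pax7 marks the satellite cells, the stem cells of muscle, which are few beside the fibres.

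The array measures each gene through probes of 60 bases. The first 30 bases of the probes on which the results turn are shown because a value here belongs to a probe and the transcripts that hold it. No letters are in capitals, and none of these probes shared a run of more than 18 bases with a probe of another gene. Both Myf5 probes are shown because they disagreed on whether the gene was detected.
Hdac4: aacaagaaaacaaaacagttttctatggct
Mef2d: accccacttcctttcttctgctccatgtcc
Myog: attgttgtgtgtgttgtttgtaaagctgtc
Myf6: ttaatcctaagagtatttaatgtacttttg
Mef2a: ttttttaaagaatagctttatcttgtttta
Myf5, detected: aattcacagcctgcaacccccgggtcctcc
Myf5, not detected: catatatgcctgaacttgataaatatagta

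On the array's own build (rn4) the Hdac4 probe lay at chr9:91147484-91147543 on the minus strand, the Mef2d probe at chr2:180246846-180246905 on the plus strand and the Myog probe at chr13:47246094-47246153 on the plus strand. The Myf6 probe (chr7:46200071-46200130) and both Myf5 probes (chr7:46190314-46190373 and chr7:46189256-46189315) lay on the minus strand, the genes being neighbours. The Myod1 probe lay at chr1:96912833-96912892 (plus), the Mef2c probe at chr2:12329521-12329580 (minus) and the Pax7 probe at chr5:158547811-158547870 (minus). The array file places the Mef2a probe on no chromosome. Exons and untranslated regions are not given, since no genome of that build was used. Of the 10 probes, 3 were poor in G and C: 20.0% for Mef2a, 23.3% for Myf6 and 28.3% for the second Myf5 probe, against a median of 45% and a 5th percentile of 35.0% over all 30367 probes.

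The promoters of Myog, Hdac4 and Myf6 are shown because Myog and Hdac4 passed the test at 24 h and Myf6 had the highest ratios at 8 h; the promoter of Mef2d, the other gene called at 24 h, held no match to either motif. Each is the 250 bases before the gene's start in RefSeq on GRCr8, read along the gene. Capitals mark E-boxes, searched as CANNTG, which reads the same on both strands, and, in Myf6, also the MEF2 element. That element was searched on both strands as YTAWWWWTAR, where Y is C or T, W is A or T and R is A or G. Rat Myod1 and Mef2c were not among the promoters used here, so 7 members had one.
Myog, chr13:48297226-48297475, plus strand: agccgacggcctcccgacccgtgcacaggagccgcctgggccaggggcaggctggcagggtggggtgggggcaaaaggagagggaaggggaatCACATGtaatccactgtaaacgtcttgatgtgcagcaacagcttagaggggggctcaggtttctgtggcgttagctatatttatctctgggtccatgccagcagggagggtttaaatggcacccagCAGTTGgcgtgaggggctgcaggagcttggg
Hdac4, chr9:100197638-100197887, minus strand: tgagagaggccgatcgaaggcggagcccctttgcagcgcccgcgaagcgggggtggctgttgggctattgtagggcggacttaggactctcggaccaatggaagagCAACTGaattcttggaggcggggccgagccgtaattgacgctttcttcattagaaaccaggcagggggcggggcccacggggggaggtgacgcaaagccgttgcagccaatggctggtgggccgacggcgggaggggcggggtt
Myf6, chr7:44701314-44701563, minus strand: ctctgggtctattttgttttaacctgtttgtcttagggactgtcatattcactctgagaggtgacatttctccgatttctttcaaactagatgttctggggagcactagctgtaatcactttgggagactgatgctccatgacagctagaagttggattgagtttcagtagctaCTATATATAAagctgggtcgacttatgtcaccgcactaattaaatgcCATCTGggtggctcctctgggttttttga

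Myog held E-boxes 157 to 152 and 31 to 26 bases before its start, Hdac4 held an E-box 144 to 139 bases before, and Myf6 held a MEF2 element 76 to 67 bases and an E-box 29 to 24 bases before. Among the 7 members with a promoter, 3 held an E-box and 2 a match to the MEF2 pattern, the other MEF2 match being in Mef2a. Myog also held ctatatttat, which departs from that pattern only in its last base and was not counted. Of all 33469 promoters of the same length, 65.5% held an E-box, 2.96% a MEF2 element and 2.0% both. These matches describe letters only.

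The tissue was checked against muscle fibre markers. All 12 kept markers of 13 listed were well above background in both channels of all 8 arrays, with control levels between the 83.9 and 100 percentiles of all probes. None of 7 markers of male accessory gland epithelium was kept. The log2 ratios of 8 h replicate 1 were spread more widely (SD 0.437 over kept probes) than those of the other 8 h arrays (0.180 to 0.198), and 8 h replicate 2 correlated with replicates 3 and 4 at only -0.13 and -0.04. Each time had a slide to itself, and an effect of time therefore cannot be told apart from an effect of the slide. If dye-swapped arrays repeated the same extracts, the p-values below would be too small. In such bulk RNA, fewer cells of a type and less RNA per cell cannot be told apart.

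At 24 h Hdac4 and Mef2d were lower in the treated rats and Myog was higher, while Myod1, Myf5, Myf6, Mef2a and Mef2c did not pass the test. The response of every member is the mean log2 ratio of treated over control, from a limma model across all genes, called at a Benjamini-Hochberg adjusted p under 0.05. Of the 8 tested members 1 rose, where 4.14% of all genes tested rose, and 2 fell, where 2.91% of all genes fell. In either direction 3 of 8 members passed, where 7.05% of all genes did. The members were chosen with earlier results of these data known, so these shares are no test of the set. Mef2d and Myog each lost their call when any array of 24 h was left out. The median log2 ratio of the tested members was 0.02 and that of all genes was 0.00. Pax7 was on the array and could not be tested.

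**Figure D1:**
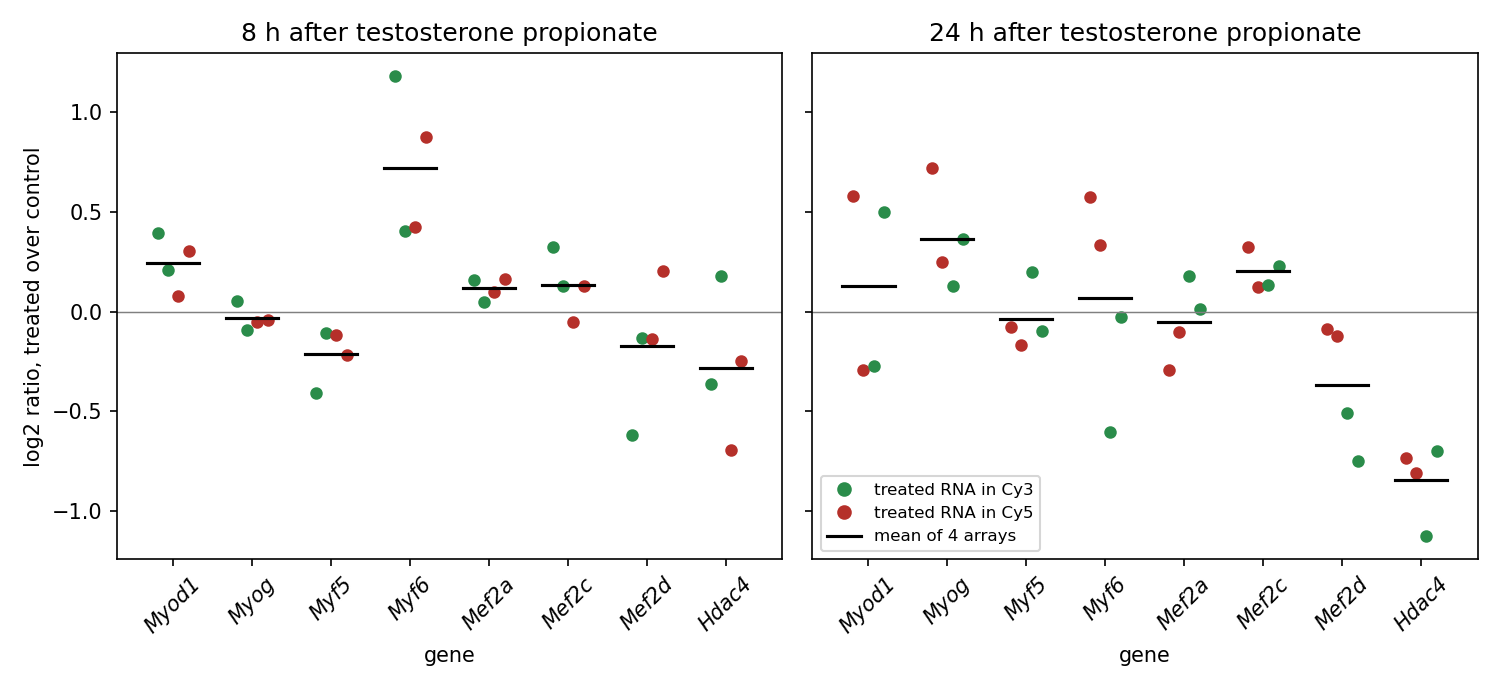
Log2 ratios of treated over control (y axis) on each array for the 8 tested members (x axis), at 8 h and at 24 h; points are arrays coloured by the dye on the treated RNA and black bars are means of 4 arrays. At 24 h all 4 Hdac4 points lie between -1.13 and -0.70, Myog lies above 0 on all 4 arrays, and the Mef2d points separate by dye.

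Hdac4, the class II deacetylase that holds MEF2 target genes down, showed the largest change of the set. Its log2 ratios at 24 h were -0.74, -0.81, -1.13 and -0.70 on replicates 1 to 4. Its normalized log2 intensity was 7.45, 7.50, 7.87 and 7.59 in the control RNA and 6.71, 6.69, 6.74 and 6.89 in the treated RNA. The highest treated level was below the lowest control level, so the groups did not overlap. The treated level was 1.79-fold lower on average (mean log2 ratio -0.84 ± 0.20, SD, n = 4; 95% interval -1.12 to -0.56; limma, adjusted p = 0.00434). The fall was present with either dye, at -0.77 with the treated RNA in Cy5 and -0.91 with it in Cy3. Its size differed with the signal processing, at -0.64 under median centring and -1.13 with a smaller normexp offset (16 in place of 50). It was -1.56 with Agilent's processed signals, in which background and dye steps both differ. On replicates 3 and 4 the treated mean signal less local background was 35.2 and 43.1 linear units, over backgrounds of 37 and 34. The fall passed the test under all 19 other settings tried, some of which could not move its size. The adjusted p lay between 0.000455 and 0.0399, the latter under median centring.

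At 8 h the Hdac4 ratios were -0.36, 0.18, -0.70 and -0.25. Replicate 2 was the array above 0, and the levels of the groups overlapped, at 6.96, 7.61, 7.08 and 7.10 in treated against 7.33, 7.43, 7.78 and 7.35 in control RNA. The mean of -0.28 ± 0.36 (SD, n = 4) did not pass (limma, adjusted p = 0.289). Without replicate 2 it was -0.44 and passed, with an adjusted p of 0.0379 in the same limma model, while the number of genes called at 8 h went from 3 to 1215. Without replicate 3 the Hdac4 ratio was -0.14 (adjusted p = 0.635), and under median centring it was -0.08. Over 19 alternatives its adjusted p at 8 h ran up to 0.906. The 24 h response was 0.56 lower than the 8 h response on the log2 scale (95% interval -0.96 to -0.17), which missed the threshold (limma, adjusted p = 0.150).

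**Figure D2:**
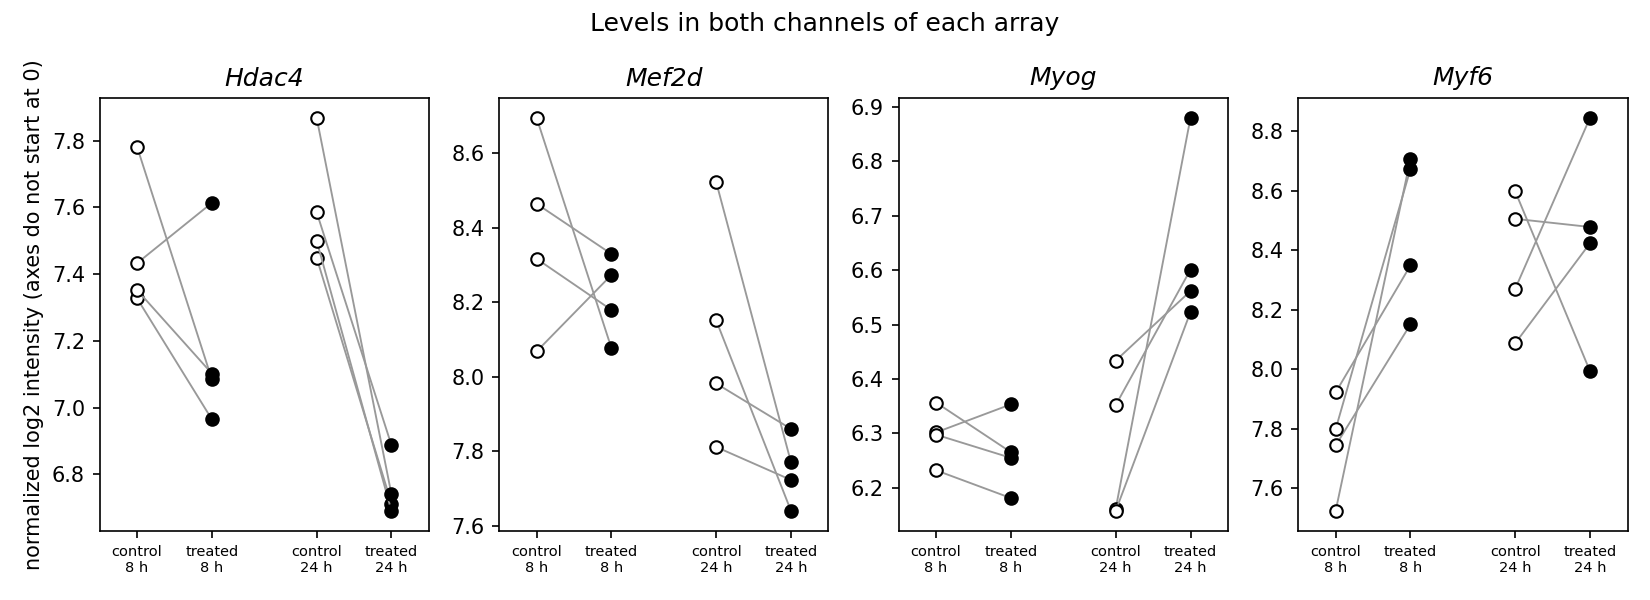
Normalized log2 intensity (y axis, own range per gene) of Hdac4, Mef2d, Myog and Myf6 in control (open) and treated (filled) RNA at 8 h and 24 h; each line joins both channels of an array. For Hdac4 and Myog at 24 h and Myf6 at 8 h the treated and control levels do not overlap, and for Mef2d they overlap at both times.

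The MEF2 factors act with the myogenic factors on muscle genes and are bound by Hdac4. Of the 3 members, Mef2d fell at 24 h and Mef2a and Mef2c did not pass. The Mef2d ratios were -0.09, -0.12, -0.51 and -0.75. Its levels were 7.81, 7.98, 8.15 and 8.52 in control RNA and 7.72, 7.86, 7.64 and 7.77 in treated RNA. The treated level was lower on each array, yet the groups overlapped. The fall averaged 1.29-fold (mean log2 ratio -0.37 ± 0.32, SD, n = 4; 95% interval -0.58 to -0.16; limma, adjusted p = 0.0447). It was -0.11 with the treated RNA in Cy5 and -0.63 with it in Cy3, and at 8 h the means of the same dyes were 0.03 and -0.38. The call was lost under 12 of 19 other settings, among them no dye coefficient (adjusted p = 0.159), Agilent's processed signals (0.0878), and leaving out any 24 h array (0.106 to 0.185) or 8 h replicate 3 (0.0600) or 4 (0.0615); over all 19 the adjusted p ran from 0.00982 to 0.715. Median centring in place of loess, which moved the median of all genes to 0.16, left Mef2d at -0.08.

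At 8 h the Mef2d ratios were -0.62, -0.13, -0.14 and 0.21, with overlapping levels and a mean of -0.17 ± 0.34 (SD, n = 4; limma, adjusted p = 0.357). The mean was -0.09 without replicate 1 or without replicate 3 and -0.28 without replicate 2.

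Mef2c was printed on the array as 10 spots of a single probe, so its technical spread within an array can be seen. The probes of the other members had 1 spot each, for which that spread cannot be seen. At 24 h its ratios were 0.32, 0.13, 0.13 and 0.23, each the mean of the spots kept. The levels were 8.12, 8.11, 8.03 and 8.04 in control and 8.45, 8.23, 8.17 and 8.27 in treated RNA, without overlap. The mean of 0.20 ± 0.09 (SD, n = 4) had an unadjusted p of 0.0230 in limma and an adjusted p of 0.145, and so did not pass. At 8 h the ratios were 0.32, 0.13, -0.05 and 0.13, with a mean of 0.13 ± 0.15 (SD, n = 4; limma, adjusted p = 0.367) that was 0.07 without replicate 1. Within an array the spots had an SD between 0.07 and 0.20.

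**Figure D3:**
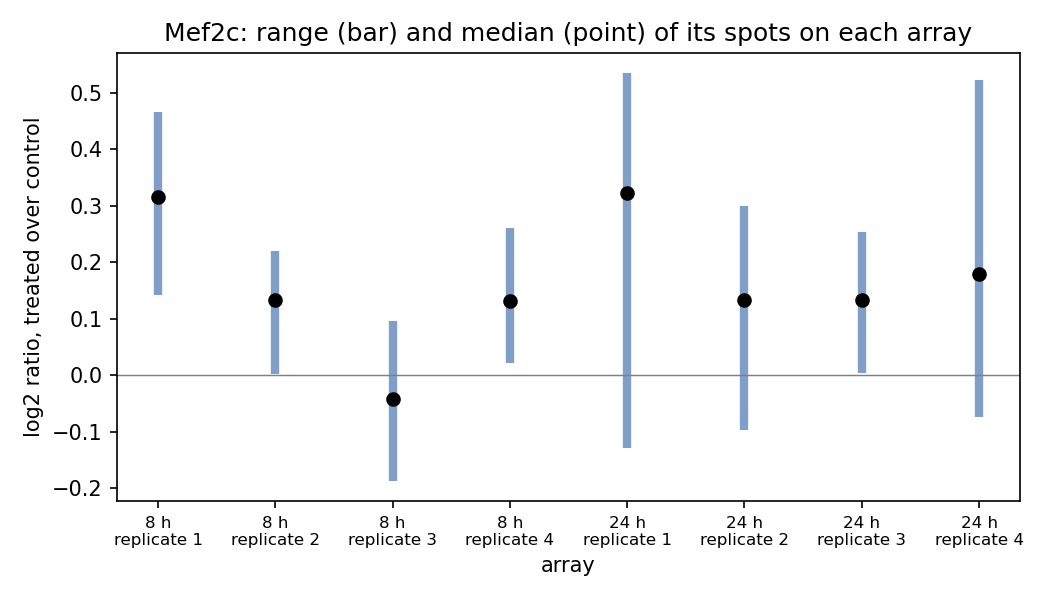
Log2 ratio of treated over control (y axis) for the Mef2c spots of each array (x axis); bars run from the lowest to the highest spot without outlier flag and points are medians. Medians lie between 0.13 and 0.32 on the 24 h arrays and between -0.04 and 0.32 on the 8 h arrays.

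Mef2a was close to background. At 8 h it was well above background in the treated RNA of 1 of 4 arrays and in the control RNA of 0 of 4, so no fold is given there; the mean log2 levels were 6.22 in treated and 6.10 in control RNA (limma, adjusted p = 0.425). At 24 h it was well above background on 3 of 4 treated and 2 of 4 control channels, with ratios of -0.29, -0.10, 0.18 and 0.01. Their mean of -0.05 ± 0.20 (SD, n = 4) did not pass (limma, adjusted p = 0.769), and neither sign was shared by the 4 arrays.

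Myog, the differentiation factor, rose at 24 h from a dim signal. Its ratios were 0.72, 0.25, 0.13 and 0.37. Its levels were 6.16, 6.35, 6.43 and 6.16 in control RNA and 6.88, 6.60, 6.56 and 6.52 in treated RNA. Each treated level lay above all 4 control levels. The rise averaged 1.29-fold (mean log2 ratio 0.37 ± 0.26, SD, n = 4; 95% interval 0.16 to 0.57; limma, adjusted p = 0.0398). The treated channel was well above background on 4 of 4 arrays and the control channel on 2 of 4, at 24 h as at 8 h. Over both times and channels the spot's mean signal less its local background was 10.9 to 114 units of linear intensity, with a median of 29.3, against a local background of 34 to 43.5.

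The size of the Myog rise was 0.63 with the smaller normexp offset and 1.44 with the processed signals, both past the threshold. The rise lost its call without any 1 of the 4 arrays of 24 h (adjusted p 0.0605 to 0.217, and 0.25 in size without replicate 1), without 8 h replicate 3 (0.0686) or 4 (0.0623), and under median centring (0.0770). Requiring every channel to be well above background removed the probe. At 8 h the ratios were 0.05, -0.09, -0.05 and -0.04, with overlapping levels and a mean of -0.03 ± 0.06 (SD, n = 4; limma, adjusted p = 0.868). The difference between the times was 0.40 on the log2 scale (95% interval 0.11 to 0.68) and did not pass (limma, adjusted p = 0.156).

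**Figure D4:**
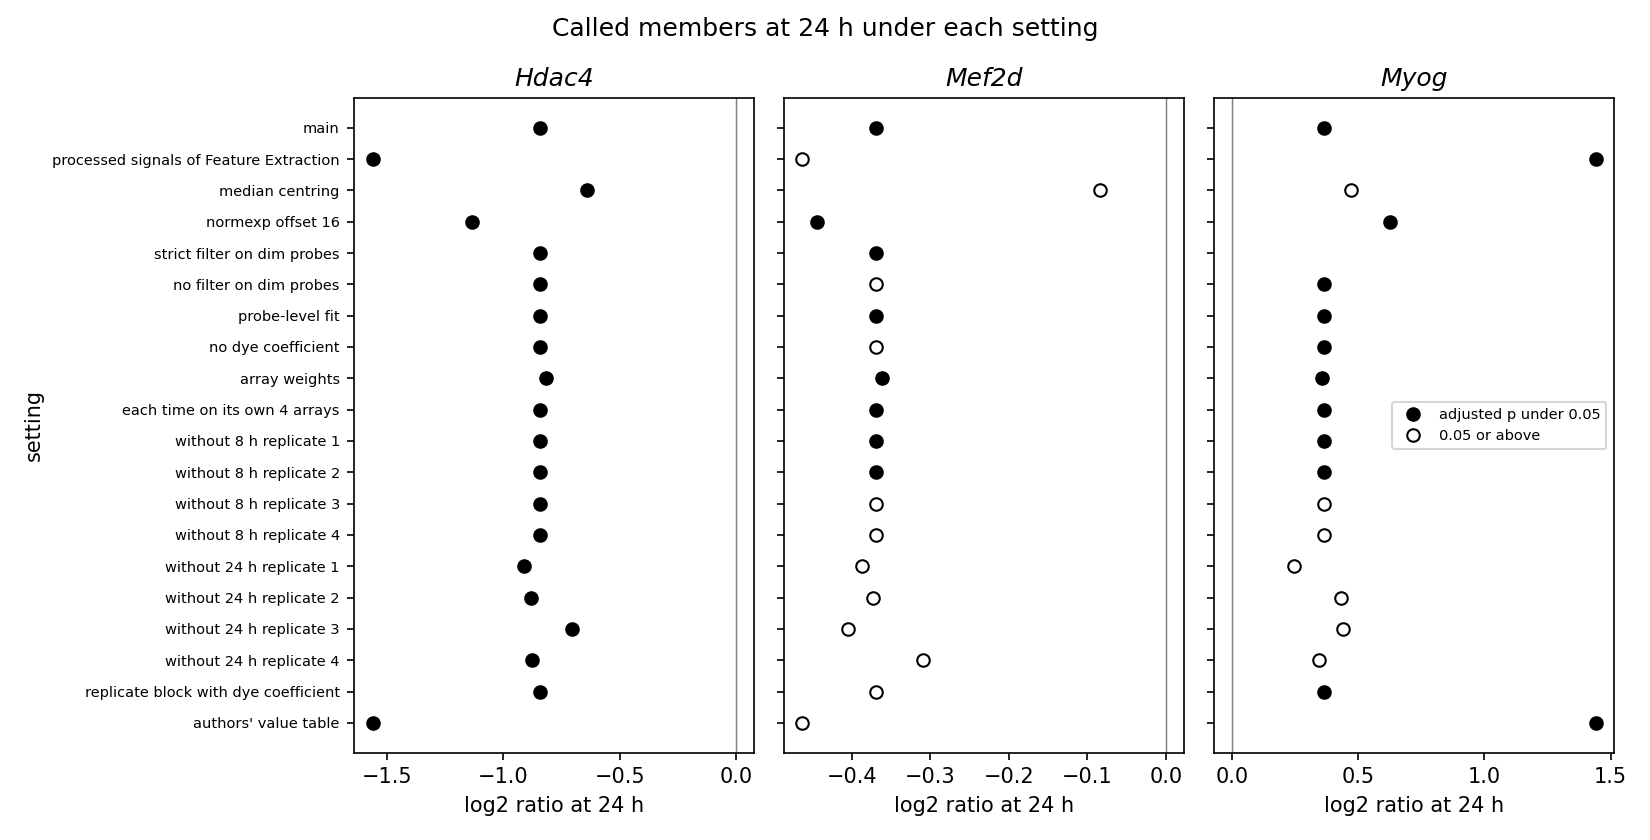
Log2 ratio at 24 h (x axis, own range per gene) of Hdac4, Mef2d and Myog under the reported setting (main) and each alternative (y axis); filled points have an adjusted p under 0.05. Hdac4 is filled in every row, Mef2d is open in 12 rows and Myog in 7; Myog has no point under the strict filter.

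None of the 8 tested members passed at 8 h, where 0.0276% of all genes tested did (3 of 10877, and 1862 at an unadjusted p under 0.05). At that unadjusted level 3 members stood in the limma fit, namely Myf6, Myf5 and Hdac4, with adjusted p of 0.260, 0.270 and 0.289. The members' median log2 ratio at 8 h was 0.04 and that of all genes was -0.01.

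Myf6, the factor of mature fibres, had the highest ratios of the set at 8 h, at 1.18, 0.41, 0.43 and 0.87. Its levels were 7.52, 7.74, 7.92 and 7.80 in control RNA and 8.71, 8.15, 8.35 and 8.67 in treated RNA. The groups did not overlap, and the mean log2 ratio was 0.72 ± 0.37 (SD, n = 4; 95% interval 0.34 to 1.11; limma, adjusted p = 0.260). Both dyes gave a positive mean, 0.65 with the treated RNA in Cy5 and 0.79 with it in Cy3. Without 8 h replicate 2 the mean was 0.79 and passed (limma, adjusted p = 0.0381); without replicate 1, the widely spread array, it was 0.48. Its adjusted p over 19 alternatives ran up to 0.854.

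At 24 h the Myf6 ratios were 0.57, 0.34, -0.60 and -0.03. The arrays with the treated RNA in Cy5 were above 0 and those with it in Cy3 below, with means of 0.46 and -0.32. The levels, 8.27, 8.09, 8.60 and 8.51 in control and 8.85, 8.42, 7.99 and 8.48 in treated RNA, overlapped, and the mean of 0.07 ± 0.51 (SD, n = 4) did not pass (limma, adjusted p = 0.873). The control channel averaged 7.75 ± 0.17 at 8 h and 8.37 ± 0.23 at 24 h (SD, n = 4 each) and the treated channel 8.47 ± 0.27 and 8.43 ± 0.35, so the times lay further apart in the control channel. These are levels of separate slides and were not tested against each other. The response itself was 0.65 lower at 24 h than at 8 h on the log2 scale (95% interval -1.19 to -0.11; limma, adjusted p = 0.224).

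Across the 8 tested members 0 differed in response between 24 h and 8 h after adjustment, where 1.3% of all genes did. At an unadjusted p under 0.05 there were 3 in the limma fit, Myog, Myf6 and Hdac4, where 1765 of all 10877 genes stood at that level. The median difference was -0.14 over the members and 0.03 over all genes.

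Levels of treated and control RNA failed to overlap for 2 of 8 members at 8 h (Myod1 and Myf6), where 5.7% of all genes showed this, and for 3 of 8 at 24 h (Hdac4, Myog and Mef2c), where 11.3% did.

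Myod1, a lineage factor and the brightest of the probes, did not pass at either time. The 8 h arrays gave ratios of 0.40, 0.21, 0.08 and 0.30, and the 24 h arrays gave 0.58, -0.29, -0.27 and 0.50. The 8 h levels were 9.55, 9.63, 9.74 and 9.49 in control and 9.95, 9.83, 9.82 and 9.79 in treated RNA, without overlap, and their mean ratio was 0.25 ± 0.14 (SD, n = 4; limma, adjusted p = 0.394). At 24 h the arrays pulled in opposite ways, with replicates 1 and 4 above 0 and replicates 2 and 3 below under either dye. The mean was 0.13 ± 0.48 (SD, n = 4; limma, adjusted p = 0.685).

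Myf5, the lineage factor whose transcript mouse satellite cells also hold, was read through its detected probe. The 8 h arrays had ratios of -0.41, -0.11, -0.12 and -0.22, and the 24 h arrays had -0.08, -0.17, 0.20 and -0.10. All 4 arrays of 8 h lay below 0, yet levels overlapped, at 6.55, 6.82, 6.96 and 6.85 in treated against 6.96, 6.93, 7.08 and 7.07 in control RNA. The mean was -0.21 ± 0.14 (SD, n = 4; limma, adjusted p = 0.270) at 8 h and -0.04 ± 0.16 (adjusted p = 0.862) at 24 h. The 8 h mean was -0.13 without replicate 1 and -0.04 under median centring. The second Myf5 probe, with 28.3% G and C, was not well above background in any of the 16 channels. Its net signal ran from -3.45 to 14.8 linear units, against 28.7 to 107 for the detected probe.

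Pax7 was not well above background in any channel either. Its net signal ran from 3.30 to 12.6 linear units over a local background of 35 to 45, which gives no fold. A list of satellite cell markers that includes Pax7 and Myf5 themselves was read as well. Of 19 listed, 10 were tested, Myf5 among them, and 0 passed at 8 h or at 24 h or between the times. The tested markers had a median log2 ratio of -0.06 at 8 h and 0.04 at 24 h. The smallest p at 24 h belonged to Chodl, with a log2 ratio of 0.23 ± 0.18 (SD, n = 4; limma, adjusted p = 0.0997), and to Cd34, with 0.14 ± 0.22 (adjusted p = 0.458). With the processed signals or the smaller normexp offset 1 of the satellite cell markers passed at 24 h. Without 8 h replicate 2 there were 2 at 8 h, where 1215 of all 10876 genes tested passed.

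**Figure D5:**
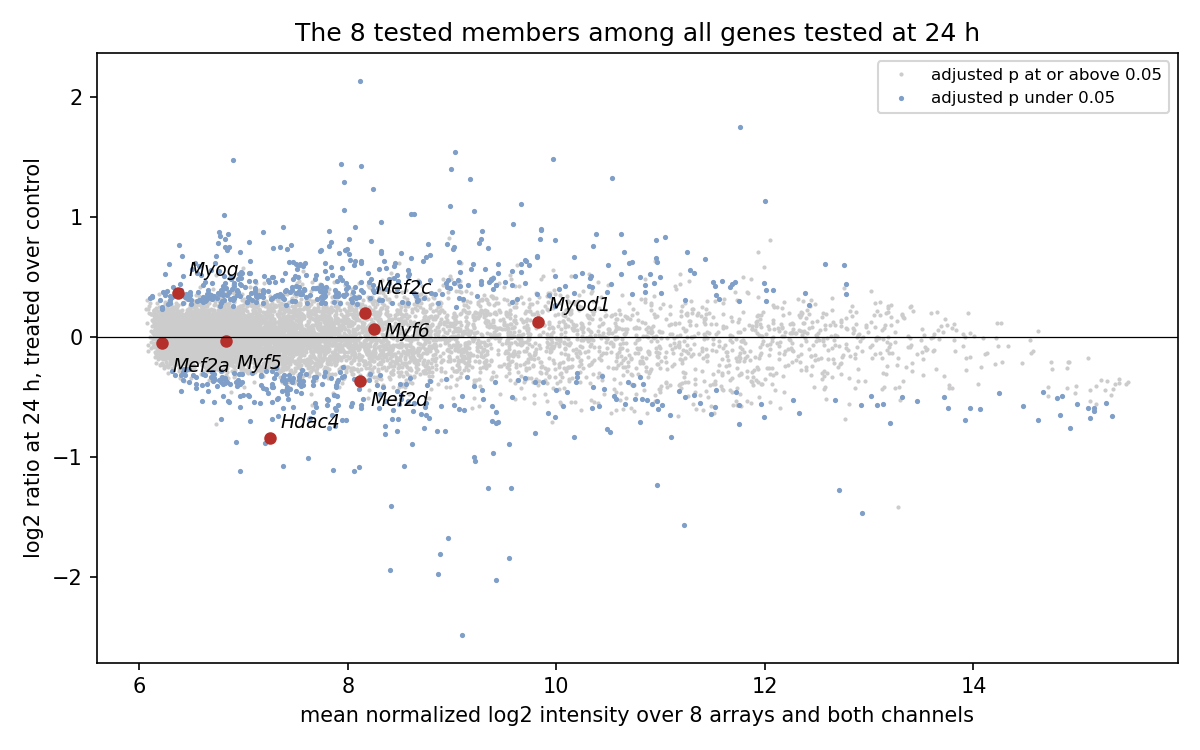
Mean normalized log2 intensity (x axis) against the log2 ratio of treated over control at 24 h (y axis) for all genes tested; blue points have an adjusted p under 0.05 and red points are the 8 tested members. Hdac4 lies at -0.84, Mef2d at -0.37 and Myog at 0.37, while Myf5, Mef2a and Myf6 lie within 0.07 of 0.

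Genes that partner or regulate these factors were read from a list of 47 (E proteins, Id proteins, other deacetylases and their corepressors, MEF2 kinases, and the Eya, Tead and sine oculis related homeobox factors), of which 42 were on the array and 28 tested. At 24 h 2 rose, 1 fell and 25 did not pass, where 4.14% of all genes tested rose and 2.91% fell. The median log2 ratio of the list was 0.01 beside 0.00 for all genes. Mapk14, the p38 kinase that phosphorylates MEF2 proteins, rose by 0.81 ± 0.15 on the log2 scale (SD, n = 4; limma, adjusted p = 0.0023). Srf, the MADS-box factor of actin genes, rose by 0.44 ± 0.29 (adjusted p = 0.0130). Tead1, which binds a muscle promoter element, fell by 0.32 with an SD of 0.06 (adjusted p = 0.0225). The number that passed at 24 h was 1 without 24 h replicate 1 or 3 and under median centring. It was 5 with each time fitted on its own arrays, where 809 of all 10881 genes tested rose and 783 fell. At 8 h and between times 0 of the 28 passed. Without 8 h replicate 2 there were 3 and 2, while 1215 of all 10876 genes tested passed at 8 h. Hdac5 and Hdac7, the other class II deacetylases tested, stood at -0.03 and 0.04 at 24 h (adjusted p = 0.889 and 0.769).

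Of 26 genes described as targets of myogenin, MEF2 or the Hdac4 axis, 18 were tested. At 24 h 2 of them passed, both lower, where 2.91% of all genes tested fell. They were the ubiquitin ligases Fbxo32 (atrogin-1), at a log2 ratio of -2.48 ± 0.48, and Trim63 (MuRF1), at -0.68 ± 0.27 (SD, n = 4; limma, adjusted p = 0.00014 and 0.0205). In denervated mouse muscle myogenin is known to raise both. The remaining 16 did not pass, the acetylcholine receptor subunits Chrna1 (0.10) and Chrnb1 (0.22) and embryonic myosin Myh3 (-0.05) among them. The median over all 18 was 0.00. Leaving out 24 h replicate 1, 3 or 4 left 1 of the 18 called at 24 h. Fitting each time on its own arrays gave 4, where 809 of all 10881 genes tested rose and 783 fell. Between the times 1 of 18 passed, where 1.3% of all genes did. It was Fbxo32, with a response that fell by 1.74 on the log2 scale from 8 h to 24 h (limma, adjusted p = 0.0211). The count between times was 0 under median centring and without 8 h replicate 4, 24 h replicate 1 or 24 h replicate 3. It was 3 without 8 h replicate 2, when 3 also passed at 8 h, as did 1215 of all 10876 genes tested. The cell cycle inhibitor Cdkn1a had 2 kept probes that disagreed at 24 h, at -0.25 for the brighter and 0.60 for the other, the latter with an adjusted p of 0.0326 when limma was fitted to all probes.

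Markers of other cell types moved at the same time. At 24 h 4 of 8 tested fibroblast markers (Col1a1, Col1a2, Col3a1 and Postn) and 4 of 9 tested macrophage markers (C1qa, C1qc, Cd163 and Lyz2) rose in limma's fit, as did 1 of 4 endothelial markers, Kdr. Of all genes tested 4.14% rose at that time. The other fibroblast markers did not pass, with log2 ratios of -0.25 for Lum, lower on 4 of 4 arrays, -0.05 for Dpt, -0.03 for Pdgfra and 0.00 for Dcn, so the genes that rose in this list were collagens and Postn, a matrix protein. Beside Kdr at 0.36 the endothelial markers Cdh5, Vwf and Pecam1 stood at -0.27, -0.07 and 0.14. The other macrophage markers, each read through its brightest kept probe, did not pass either. Aif1 and C1qb stood at 0.51 and 0.37, while Csf1r, Adgre1 and Cd68 were near 0, at 0.08, 0.05 and -0.02. Another kept probe of Aif1 stood at 0.47, with an adjusted p of 0.0254 when limma was fitted to all probes. The summed fibroblast level was 12.3 to 12.7 in control and 13.2 to 13.9 in treated RNA on the log2 scale, and that of macrophages was 12.0 to 12.3 and 12.4 to 12.8. Fibre markers at 24 h summed to 17.7 to 17.8 in control and 17.2 to 17.5 in treated RNA, where Acta1 and Actn3 fell and Myh1 rose among 12 tested. Between the times 4 fibroblast, 3 macrophage and 1 fibre marker passed, all with a higher response at 24 h. Of all genes 1.3% passed between the times in either direction. At 8 h the log2 ratios of these markers ran from -1.55 (Myh1) to -0.08 (C1qa), and none of them passed. The part of these shifts in the values of Hdac4, Mef2d and Myog was not tested.

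Over the 8 arrays the genes whose log2 ratios were most like Hdac4 were Dusp23 (Pearson r = 0.976) and Arhgef15 (0.972). Those most like Myog were Psme3ip1 (0.953) and Dennd5a (0.951), those most like Mef2d were Drg1 (0.965) and Elac2 (0.957), and those most like Myf6 were Dnttip1 (0.967) and LOC691522 (0.957). For Myod1 they were Eif2b3 (0.964) and Surf2 (0.944), for Myf5 Tagln2 (0.961) and Cib1 (0.954), for Mef2a Lrrc39 (0.961) and Mcrip2 (0.957), and for Mef2c Inka2 (0.947) and Sptssa (0.928). These are descriptions over 8 points that share slides and dyes, and the genes named are the 2 highest for each member of 8035 compared. The correlation does not weigh size. At 24 h Dusp23 and Arhgef15 had log2 ratios of -0.31 and -0.06, beside -0.84 for Hdac4. Psme3ip1 and Dennd5a had 0.06 and 0.25, beside 0.37 for Myog.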

How the data were processed

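Per the submitters' processing notes, signals were extracted with version 9.5.3.1 of Agilent Feature Extraction. The deposited spot means and local background medians are linear, unnormalized intensities, and the deposited processed signals are intensities from which Feature Extraction had removed a spatial background and a lowess dye trend, per the file headers. The deposited authors' value table holds log2 ratios, which matched those of the processed signals once directed by the labelled dyes.

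From these, limma 3.58.1 in R 4.3.3 subtracted background from mean signals (normexp, offset 50) and applied within-array loess. Control spots and outlier-marked spots were left out, spots of a probe averaged, and probes kept if well above background on at least 3 of 4 arrays of at least 1 of the 4 RNA groups. Each gene was represented by its brightest kept probe. All 8 arrays entered 1 fit with a coefficient per time and a dye coefficient, tested two-sided with Benjamini-Hochberg adjustment over all genes. Levels were set between arrays by quantile normalization of average intensities (Aquantile). The 4 arrays per group limit the precision, and p-values measure the spread between these arrays. The fit was tested on simulated ratios whose arrays were independent and held no dye or slide effect. That run therefore cannot tell how such effects bear on these p-values. Named genes were all members, list genes past the threshold (or the 2 with the smallest p at 24 h where none passed), and the 2 genes most correlated with each member; Hdac5, Hdac7, Chrna1, Chrnb1, Myh3 and Cdkn1a were chosen after their values were seen. Members and lists were chosen with earlier results of these data known. Names came from RefSeq's GRCr8 gene table, and sequences from RefSeq or the array files.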

Additional observations from a re-analysis of the deposited data

How the results depend on the processing

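Hdac4 at 24 h passed under 19 of 19 alternatives, Myog under 11 of 18 and Mef2d under 7 of 19; of 442 member values, 404 kept sign and side of the threshold. Alternatives that changed only the filter, the fitted terms or the 8 h arrays could not move these 24 h ratios, only their p-values. The processed signals and the authors' table hold the same ratios and were counted separately. The totals therefore overstate the number of separate checks. Members past the threshold numbered 1 at 24 h under median centring, 1 to 3 when arrays were left out in turn, and 0 to 2 at 8 h then. Whether same-numbered arrays of the 2 times pair was not settled: the correlations of their deviations from the group means were -0.26, 0.17, -0.16 and -0.08, and 1 of 4 arrays at 8 h and 0 of 4 at 24 h correlated best with their own number. After removing the dye effect, since same-numbered arrays carry opposite dyes, they were 0.28, 0.19, 0.31 and 0.34, where the shared dye term alone gives 0.20. With the replicate block 1 member passed between times (Myf6, -0.65, adjusted p = 0.0423), Mef2d at 24 h had an adjusted p of 0.0758, and 309 genes passed between times and 7 at 8 h.

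Genes called at 24 h numbered 402 under median centring (95.5% of them higher, against 58.7% as reported), 1532 with array weights, 1592 with each time fitted on its own arrays and 192 to 1242 when arrays were left out. Between times there were 86 with the processed signals or the authors' deposited table, 0 under median centring, 252 with offset 16, 277 with weights and 28 to 591 with arrays left out. At 8 h there were 1 with the processed signals, the authors' deposited table or no dye coefficient, 0 under median centring or on its own arrays, 17 with offset 16 and 0 to 1215 with arrays left out. Under median centring the all-gene median was 0.12 (8 h) and 0.16 (24 h). Of values that did not pass, Mef2a at 24 h turned to 0.10 (processed, authors' table) and 0.021 (median centring), Myf5 at 24 h to 0.077 (processed, authors' table) and 0.092 (median centring), Mef2d at 8 h to 0.14 (median centring) and Myog at 8 h to 0.26 (processed, authors' table). With arrays left out, Myf6 at 24 h ran from -0.069 to 0.28, Myod1 at 24 h from -0.061 to 0.30, Myod1 between times from -0.31 to 0.050, Mef2a at 24 h from -0.12 to 0.020 and Myf5 at 24 h from -0.12 to 0.0072. The cause of these changes was not tested. Low signal over background limits Myog and Mef2a, and the lowest treated Hdac4 signals at 24 h were also dim. The counts of the gene lists under these alternatives were added after seeing the data.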
